A study of Mus musculus with 32 samples.

Results

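Astrocytes sorted from TDP-43_Q331K mice were compared between 10 and 3 months of age. The comparison used every astrocyte library labelled 10 months or 3 months, which gave 6 of the 32 libraries of the series. There were 2 libraries at 10 months and 4 at 3 months, and 5 further astrocyte libraries from 6 months shared the estimate of spread. All of these libraries came from the TDP-43_Q331K genotype and from cortices and spinal cords pooled under one tissue label. Non-transgenic mice were not analysed here, so a difference between ages could not be separated into ageing and effects of the mutation. The promoter and line of the transgene are not given in the labels. The cells carry the ACSA2 name in the sample labels, after an antibody used for sorting whose antigen is the product of Atp1b2. Libraries were made from poly(A) RNA with a kit that adds a unique molecular identifier, a short random tag, to each fragment. The labels do not say whether replicates are separate animals or pools, so the p-values measure only the spread between these samples, which may be technical.

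TDP-43, encoded by Tardbp, is an RNA-binding protein of the nucleus that controls splicing and RNA stability. It is found in cytoplasmic aggregates in most people with amyotrophic lateral sclerosis (ALS), and Q331K is a substitution found in familial ALS. Astrocytes clear glutamate and potassium from the space around neurons, couple to each other through gap junctions, supply lipid and lactate, and build part of the extracellular matrix. After injury or in disease they can raise intermediate filaments, complement and inflammatory genes, a change called reactivity.

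Deposited read counts summed to 8775580 and 10250507 in the 10 month libraries, against 7604222 to 20763190 in the 3 month libraries, and 6151583 to 15222313 in the 6 month libraries. Levels are given below as CPM, counts scaled to library size and by the trimmed mean of M-values, always with replicates in numerical order. The summed level of a gene list covers all its listed genes, tested or not. Of 55291 genes in the table, 16189 had enough counts to be tested. The defining astrocyte markers were abundant at both ages. Slc1a3, a glutamate transporter, had 3827 and 3518 CPM at 10 months, against 4647, 4473, 4480.5 and 3010.2 CPM at 3 months. Aldh1l1, an enzyme of folate metabolism used to mark astrocytes, had 283 and 254 CPM at 10 months, against 248, 239, 223 and 155 CPM at 3 months. The summed level of 10 astrocyte markers was 27628 and 24326 CPM at 10 months, against 35073, 35955, 36161 and 23638 CPM at 3 months. The fourth 3 month library therefore stood apart from the other 3 and lay below both 10 month libraries. The same library had the highest summed level of 30 myelinating oligodendrocyte markers, 52623 CPM, against 33071 to 44064 CPM in the other 3 month libraries. In bulk samples of this kind, fewer cells of a type and less RNA per cell cannot be told apart. Xist, transcribed from the inactive X chromosome, stayed at or under 0.845 CPM and the Y-linked Ddx3y at or above 93.5 CPM in all 11 libraries, so no library stood apart by sex.

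Between 10 and 3 months, 3674 genes, 22.7% of those tested, were called at an adjusted p under 0.05 by the quasi-likelihood test of edgeR. Of these, 1862 (11.5%) were higher and 1812 (11.2%) were lower at 10 months. Changes of at least 2-fold were more often upward, with 550 genes (3.4%) higher and 209 (1.29%) lower. The median log2 fold change over all genes tested was 0.02. Leaving out either 10 month library reduced the calls, to 1052 without replicate 1 and 1942 without replicate 2. The calls that remained without each single library in turn numbered 712, of which 390 were higher and 322 were lower.

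The direction of change followed the GC content of the transcripts. Genes called higher had a median GC content of 54.9% and a median transcript length of 2722 bases. Genes called lower had a median GC content of 44.4% and a median length of 5024 bases. When genes were split into 10 groups of equal size by GC content, the lowest group, 27.5% to 41.6%, had 32 called higher and 453 lower, with a median log2 fold change of −0.33. In the highest group, 58.0% to 78.3%, 469 were called higher and 18 lower, with a median of 0.35. Both 10 month libraries carried the trend, and 6 month replicate 1 carried nearly as much of it. In the lowest group the median log2 deviation from the 3 month mean was −0.28 and −0.34 in the 10 month libraries, −0.26 in 6 month replicate 1 and 0.07 in 6 month replicate 5. The 4 libraries at 3 months stayed within −0.03 and 0.05 in every group. An offset that removed each library's own trend, called the GC offset below, left 2690 calls, 1236 higher and 1454 lower. Of these, 1006 genes were higher and 1043 lower under both fits, which is 55.8% of the calls made without the offset and 76.2% of those made with it. The GC offset did not remove a trend with transcript length. In the longest of 10 groups of equal size by length, 85 genes were called higher and 540 lower. With the GC offset these were 62 and 424. In the shortest group the counts were 145 higher and 45 lower, and 100 and 61 with the offset. Trends of this kind can come from library preparation or from the cells, and the 2 sources cannot be told apart here. Where the offset ended the call of a gene named below, or moved the counts of a list, its value is given too.

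**Figure D1:**
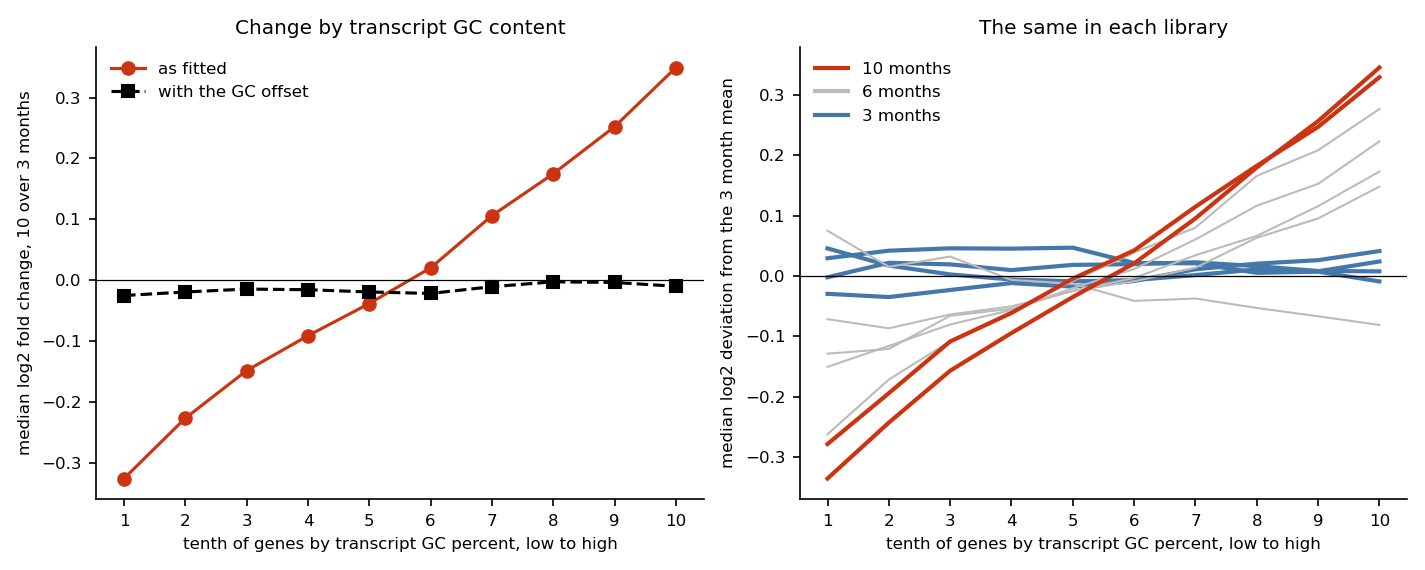
Median log2 change in 10 equal groups of tested genes ordered by transcript GC content. The left panel gives the 10 over 3 months change as fitted, which runs between −0.33 in the lowest and 0.35 in the highest group, and with the GC offset, where the lowest group lies at −0.03. The right panel gives the deviation of each library from the 3 month mean, with both 10 month libraries steepest.

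Among 53 gene lists, the largest shares of members called higher were in the Irx, collagen, immediate early, cilium, blood cell and Hox lists. Of the 4 Irx genes 3 were higher, but 0 were with the GC offset or without 10 month replicate 1. Of 9 genes of blood and border immune cells 4 were higher, but 0 were without 10 month replicate 2. The largest shares called lower were in the RNA composition, choroid plexus and myelinating oligodendrocyte lists. Of 13 mitochondrial-encoded mRNAs edgeR called 0, with 1 at an unadjusted p under 0.05, and DESeq2 and limma-voom also called 0. Of these mRNAs 0 had a positive log2 fold change, and the median was −0.39, or −0.04 with the GC offset. The counts of all lists, with every library and no offset, are read against 11.5% of all tested genes called higher and 11.2% called lower. Counts from other fits have other shares over all genes. With the GC offset 1236 of 16189 tested genes were higher and 1454 lower. Most counts were smaller with 1 library fewer at 10 months. So were the calls over all tested genes, so a smaller count there is not particular to a list. With the GC offset, 18 of 50 lists with a call had their number of calls reduced by over 1.5 times. Counts of a list that moved so far when any single library was left out are given with the list.

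**Figure D2:**
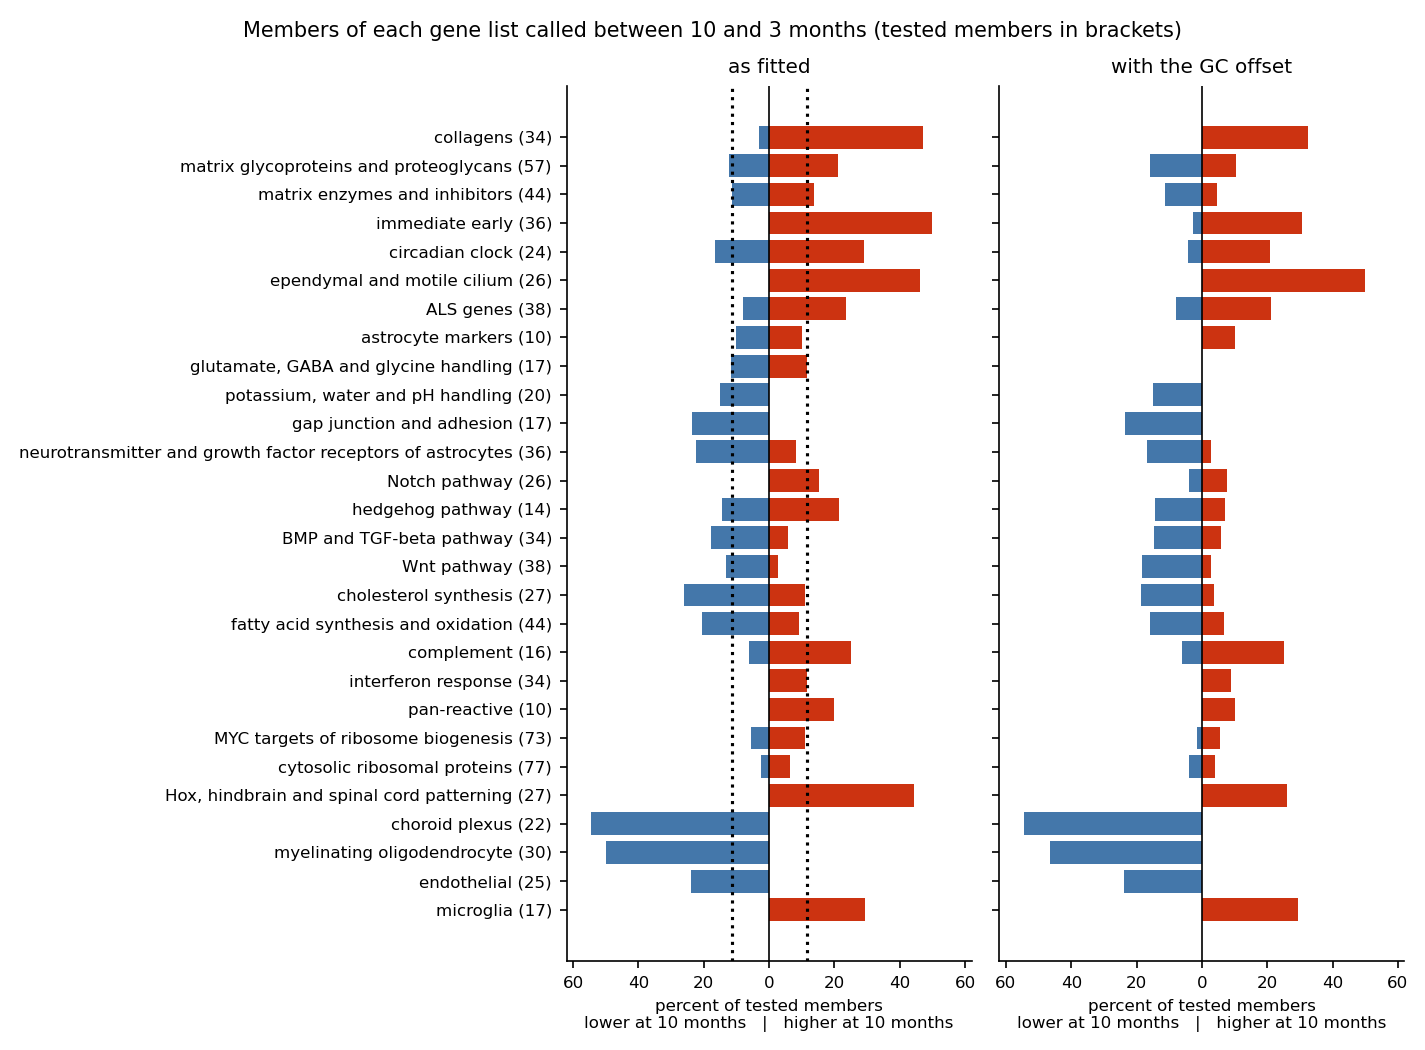
Percent of the tested members of each gene list called higher (right of zero) or lower (left of zero) at 10 months than at 3 months. Dotted lines mark the shares of all 16189 tested genes, 11.5% higher and 11.2% lower; the left panel has no GC correction and the right panel has the GC offset.

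Collagen genes were higher at 10 months as a group. Of 34 collagen genes tested, 16 rose, 1 fell and 17 did not pass, with a median log2 fold change of 0.54 against 0.02 over all genes. The summed collagen level was 921 and 958 CPM at 10 months, against 426 to 551 CPM at 3 months and 559 to 621 CPM at 6 months. In 17 collagen genes both 10 month libraries lay above all 3 month libraries, and in 2 below, as they did in 24% and 21.5% of all genes tested. With the GC offset 11 rose and 0 fell, with a median of 0.26.

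The fibrillar collagens, which assemble into the banded fibres of connective tissue, were among those that rose. Col11a2, a chain of type XI collagen at chr17:34039437-34066685 (GENCODE M21, GRCm38), had 249.98 and 298 CPM at 10 months, against 104, 114, 68.1 and 98.9 CPM at 3 months. Both 10 month libraries lay above every 3 month library, and the log2 fold change was 1.51 ± 0.19 (SE; adjusted p = 0.000228). Per transcript length it was also the most abundant collagen named here, at 156 ± 18.3 TPM, a level per transcript length (mean ± SD, n = 2), at 10 months and 46.7 ± 10.1 TPM at 3 months (n = 4). Col27a1, a fibrillar collagen of cartilage, had 37.9 and 52.6 CPM at 10 months, against 21.5, 22.3, 14.5 and 19.05 CPM at 3 months (log2 fold change 1.23 ± 0.16, adjusted p = 0.00017). All 3 genes of type V collagen, which sets fibril diameter, were higher without overlap. Col5a3 had 91.7 and 85.1 CPM at 10 months, against 26.1, 30.4, 19.3 and 25.2 CPM at 3 months, the smallest adjusted p of the list (1.81 ± 0.14, adjusted p = 3.14e-06). Col5a1 had 14.8 and 14.4 CPM at 10 months, against 4.53, 7.2, 5.3 and 6.02 CPM at 3 months (1.34 ± 0.28, adjusted p = 0.00328). Col5a2 had 30.002 and 23.3 CPM at 10 months, against 12.3, 15.7, 11.3 and 15.2 CPM at 3 months (0.96 ± 0.18, adjusted p = 0.00159). Col1a1, a chain of type I collagen that fibroblasts also make, had 38.5 and 33.5 CPM at 10 months, against 18.98, 29.1, 13.3 and 18.997 CPM at 3 months (0.84 ± 0.20, adjusted p = 0.0064). Col3a1, another fibroblast collagen, went the other way without passing the test, with 0.321 and 0.649 CPM at 10 months and 1.73, 1.49, 0.543 and 1.56 CPM at 3 months (adjusted p = 0.066). Col5a2 and Col1a1 were not called without 10 month replicate 1 (log2 fold change 0.77 and 0.74, adjusted p = 0.0504 and 0.0803). Col1a1 lost the call with the GC offset (log2 fold change 0.52, adjusted p = 0.0854).

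Among collagens that do not form fibrils on their own, some were called higher, 1 was called lower and the rest did not pass. Of the whole list, Col6a4, a chain of the beaded-filament type VI family, had the largest change but few reads, with 1.18 and 1.02 CPM at 10 months, against 0.324, 0.272, 0.136 and 0.0519 CPM at 3 months (log2 fold change 2.63 ± 0.80, adjusted p = 0.025). Col7a1, which forms anchoring fibrils below epithelia, had 13.8 and 17.6 CPM at 10 months, against 3.77, 4.75, 1.9 and 4.1 CPM at 3 months (2.09 ± 0.25, adjusted p = 0.000123). Both genes were above every 3 month library in both 10 month libraries. Col16a1, which binds to the surface of fibrils, had 60.004 and 83.8 CPM at 10 months, against 34.2, 30.3, 22.01 and 37.6 CPM at 3 months (log2 fold change 1.20 ± 0.24, adjusted p = 0.0033). Col8a2, a network-forming short-chain collagen, had 62.04 and 51.5 CPM at 10 months, against 28.5, 33.7, 36.7 and 29.5 CPM at 3 months (0.83 ± 0.15, adjusted p = 0.0011). Col9a3, a chain of type IX collagen, had 41.8 and 50.1 CPM at 10 months, against 23.9, 31.5, 25.5 and 26.2 CPM at 3 months (0.78 ± 0.20, adjusted p = 0.0107). The single collagen that fell was Col14a1, another fibril-associated collagen, with 1.39 and 1.3 CPM at 10 months and 2.05, 2.72, 2.72 and 3.94 CPM at 3 months (−1.12 ± 0.39, adjusted p = 0.0483). Of those that did not pass, Col4a3, Col6a2 and Col15a1 had log2 fold changes of −1.73, −0.68 and −0.67 (adjusted p = 0.0672, 0.249 and 0.23). Col9a3 was not called without 10 month replicate 2 (log2 fold change 0.64, adjusted p = 0.112). Col6a4 was not called when any of 4 single libraries was left out (adjusted p = 0.0502 to 0.134). Col14a1 was not called when any of 8 single libraries was left out (adjusted p = 0.0506 to 0.209). Col8a2, Col9a3 and Col14a1 lost the call with the GC offset (log2 fold change 0.50, 0.45 and −1.13, adjusted p = 0.0594, 0.0597 and 0.0567). Over the whole list, 9 collagens were called higher without 10 month replicate 1 and 12 without replicate 2. Among markers of mural cells and fibroblasts, which are other makers of collagen, 1 of 21 was higher (Col1a1) and 4 were lower, and their summed level was 418 to 491 CPM at 10 months and 477 to 620 CPM at 3 months. For mural and fibroblast markers 0 higher and 6 lower were called with the GC offset, and 0 higher and 2 lower without 10 month replicate 1.

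**Figure D3:**
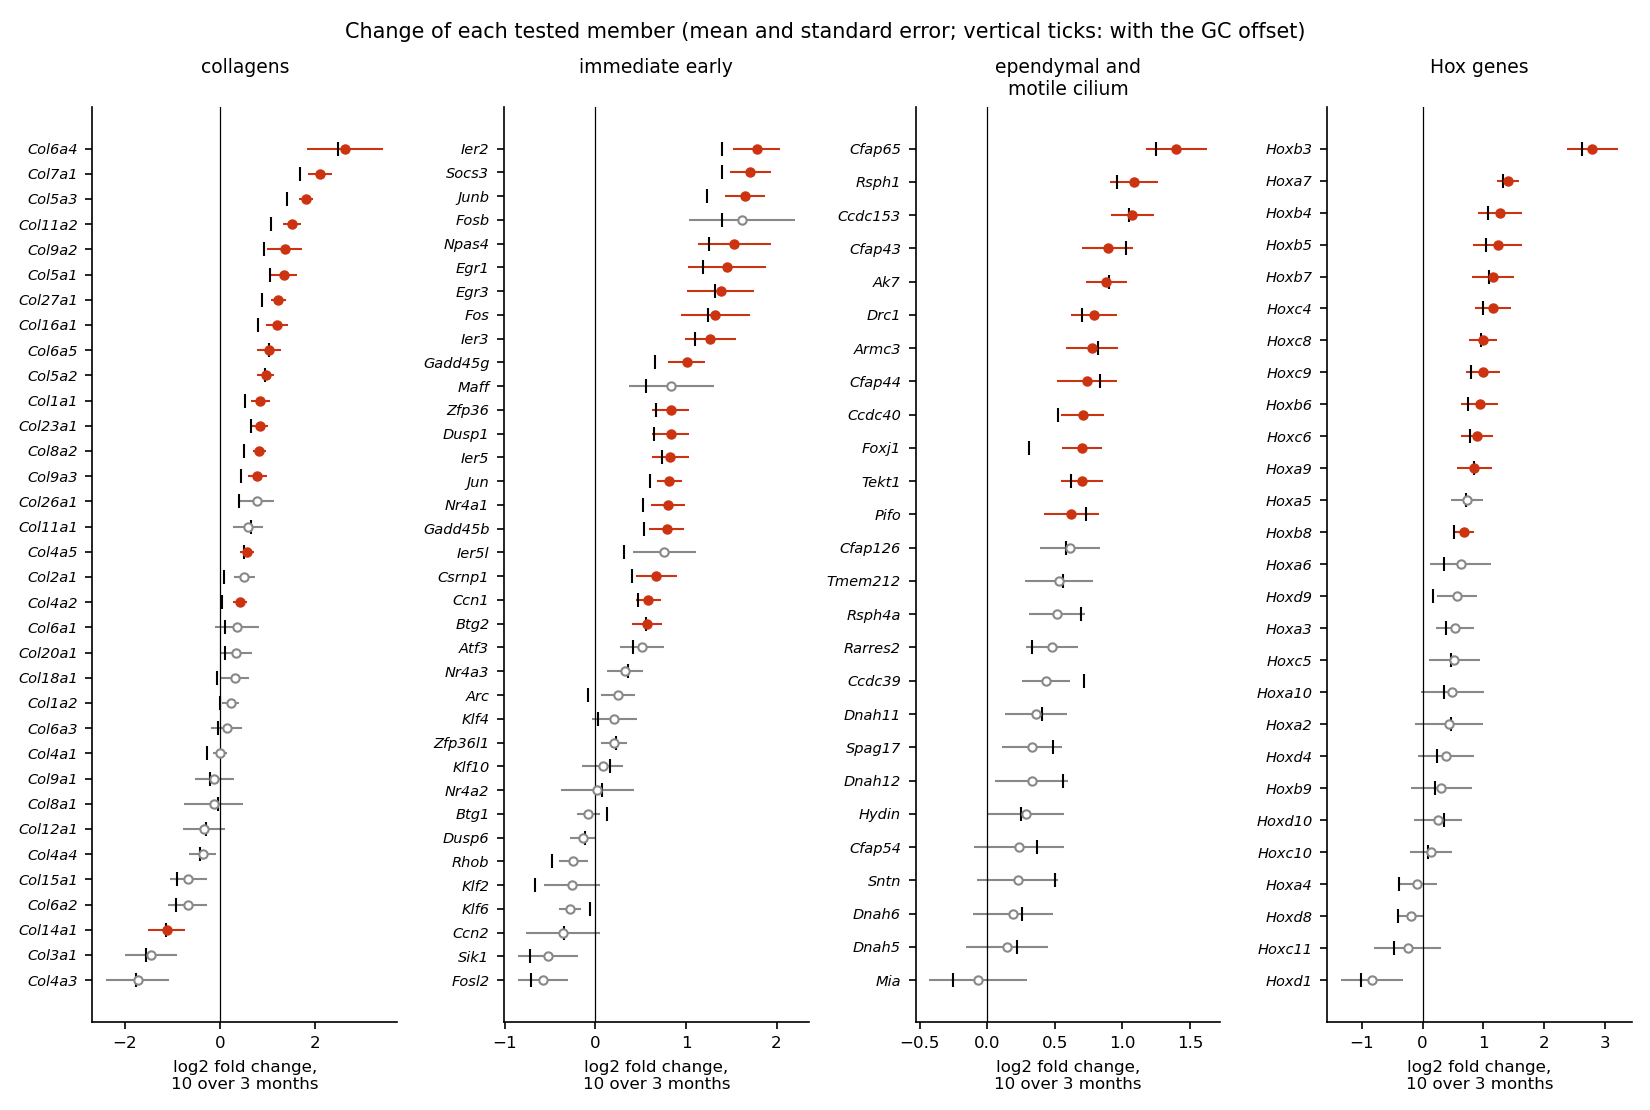
Log2 fold change of each tested member of the collagen, immediate early, ependymal and motile cilium, and Hox lists, 10 over 3 months, with standard errors as horizontal bars. Filled points were called, and vertical ticks give the value with the GC offset; of the collagens 16 were higher and 1 lower, and in the other lists 18, 12 and 12 were higher and 0 lower.

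Glycoproteins and proteoglycans of the matrix moved in both directions. Of 57 tested, 12 rose and 7 fell, with a median log2 fold change of −0.01; with the GC offset 6 rose and 9 fell. For these genes 4 higher and 1 lower were called without 10 month replicate 1, and 7 higher and 4 lower without 10 month replicate 2. Ltbp3, which holds latent TGF-beta in the matrix, had 151 and 139.7 CPM at 10 months, against 81.6, 90.8, 75.5 and 76.2 CPM at 3 months (log2 fold change 0.84 ± 0.10, adjusted p = 0.000123). The elastic fibre genes Efemp1, Efemp2 and Eln were higher without overlap between ages. Efemp2, a fibulin needed for elastic fibre assembly, had 42.2 and 37.1 CPM at 10 months, against 26.5, 24.6, 27.4 and 20.97 CPM at 3 months (0.68 ± 0.13, adjusted p = 0.00205). Efemp1, a related fibulin, changed by 0.55 ± 0.11 (adjusted p = 0.00287) and Eln, elastin itself, by 0.86 ± 0.20 (adjusted p = 0.00539). Among laminin chains, which form basement membranes, Lama5 had 81.01 and 77.4 CPM at 10 months, against 37.4, 56.9, 42.3 and 49.9 CPM at 3 months (0.76 ± 0.14, adjusted p = 0.00151). Brevican (Bcan), a proteoglycan of the matrix around synapses, was the most abundant gene of the list that rose, with 2436 and 2356 CPM at 10 months, against 1688, 1842, 1418 and 1235 CPM at 3 months (0.63 ± 0.16, adjusted p = 0.0104). Efemp1 and Bcan were not called without 10 month replicate 1 (log2 fold change 0.45 and 0.61, adjusted p = 0.0727 and 0.0872). Bcan was not called without 10 month replicate 2 (log2 fold change 0.66, adjusted p = 0.0513). Lama5 and Bcan lost the call with the GC offset (log2 fold change 0.41 and 0.26, adjusted p = 0.0671 and 0.212).

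Enzymes that modify or cut matrix and surface proteins were also split, with 6 of 44 higher and 5 lower, and 2 higher and 5 lower with the GC offset. For this list 1 higher and 2 lower were called without 10 month replicate 1, and 2 higher and 4 lower without 10 month replicate 2. P3h3, of the prolyl 3-hydroxylase family that acts on collagen chains, had 63.004 and 66.04 CPM at 10 months, against 30.6, 45.5, 25.5 and 30.99 CPM at 3 months (log2 fold change 0.97 ± 0.17, adjusted p = 0.00107). Both sheddases that release growth factors and receptors from the cell surface were lower. Adam10 had 117 and 128 CPM at 10 months, against 199.5, 171, 193 and 210.2 CPM at 3 months (−0.66 ± 0.12, adjusted p = 0.0011). Adam17 had 39.8 and 45.2 CPM at 10 months, against 62.4, 60.6, 70.9 and 79.2 CPM at 3 months (−0.69 ± 0.13, adjusted p = 0.00164). The call of each of these 3 genes was kept with the GC offset and without each single library. Adam11, a family member without protease activity, was higher, with 87.97 and 103 CPM at 10 months, against 34.7, 34.1, 21.9 and 30.6 CPM at 3 months (1.66 ± 0.15, adjusted p = 1.1e-05).

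Immediate early genes, which cells induce within minutes of stimulation without new protein synthesis, were higher at 10 months. Of 36 tested, 18 rose and 0 fell, with a median log2 fold change of 0.72 against 0.02 over all genes. Their summed level was 2325 and 2713 CPM at the later age, against 1705 to 2014 CPM at 3 months and 1577 to 1911 CPM at 6 months. These genes also respond to tissue dissociation and sorting, and the part of handling in the difference was not tested. With the GC offset 11 rose and 1 fell. Without 10 month replicate 1, 8 were called higher, and without replicate 2, 10.

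Promoters of these genes often hold binding sequence for CREB, a factor activated by cAMP and calcium. The core of its element, TGACG on either strand, lay in a promoter of 19 of 33 genes of the list found in the RefSeq table (57.6%). The 33 include genes that were not tested. Of single promoters of all genes, 6837 of 32851 held it (20.8%). A list gene counted once however many promoters it had, so these shares are in unlike units. It lay in a promoter of 8 of the 15 members called higher that were found there. TGACG is also part of the longer full element, so matches of both overlap. A match describes the letters and not a bound site. The windows of 3 members called higher are given to show the core, in capitals, within promoters of GRCm38.p6 from RefSeq, each 250 bases before to 50 bases after the start of the gene, 5′ to 3′ on the strand of the gene. They are Junb at chr8:84978699-84978998 on the minus strand, Nr4a1 at chr15:101266596-101266895 on the plus strand with 4 matches, and Ccn1 at chr3:145649936-145650235 on the minus strand.
Junb promoter: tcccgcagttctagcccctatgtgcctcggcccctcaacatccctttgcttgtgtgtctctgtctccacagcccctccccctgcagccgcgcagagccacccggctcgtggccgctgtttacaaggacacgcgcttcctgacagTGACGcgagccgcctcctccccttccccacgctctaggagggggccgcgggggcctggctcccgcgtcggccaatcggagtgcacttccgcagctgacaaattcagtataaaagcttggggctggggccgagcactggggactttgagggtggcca
Nr4a1 promoter: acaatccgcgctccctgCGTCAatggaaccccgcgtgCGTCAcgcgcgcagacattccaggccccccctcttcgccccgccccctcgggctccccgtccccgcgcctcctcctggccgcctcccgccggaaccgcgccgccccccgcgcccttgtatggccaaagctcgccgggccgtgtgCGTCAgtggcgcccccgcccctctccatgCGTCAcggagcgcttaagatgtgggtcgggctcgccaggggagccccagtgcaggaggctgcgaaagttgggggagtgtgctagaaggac
Ccn1 promoter: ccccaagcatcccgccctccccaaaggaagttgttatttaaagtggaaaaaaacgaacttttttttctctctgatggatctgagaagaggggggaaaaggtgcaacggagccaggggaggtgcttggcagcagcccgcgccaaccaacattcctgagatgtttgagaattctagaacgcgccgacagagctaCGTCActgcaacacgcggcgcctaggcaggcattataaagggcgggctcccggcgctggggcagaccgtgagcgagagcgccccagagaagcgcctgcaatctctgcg

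Of the AP-1 transcription factors, Junb had 51.9 and 53.6 CPM at 10 months, against 14.02, 22.8, 20.2 and 11.8 CPM at 3 months (log2 fold change 1.65 ± 0.22, adjusted p = 0.000303). Jun had 257 and 286 CPM at 10 months, against 159, 137, 173 and 148 CPM at 3 months (0.82 ± 0.14, adjusted p = 0.00101). Fos had 264 and 369 CPM at 10 months, against 126, 131, 149 and 102 CPM at 3 months (1.32 ± 0.38, adjusted p = 0.0321). All 3 were above every 3 month library in both 10 month libraries. The nuclear receptor Nr4a1 had 37.4 and 42.9 CPM at 10 months, against 17.3, 22.1, 21.5 and 30.4 CPM at 3 months (0.80 ± 0.19, adjusted p = 0.00674). Npas4, an activity-induced factor best known from neurons, was low at both ages, with 2.04 and 2.32 CPM at 10 months and 0.431, 1.22, 0.679 and 0.727 CPM at 3 months (1.53 ± 0.40, adjusted p = 0.0122). Nr4a1 and Npas4 were not called without 10 month replicate 2 (log2 fold change 0.69 and 1.43, adjusted p = 0.0743 and 0.101). Npas4 was not called without 10 month replicate 1 (log2 fold change 1.62, adjusted p = 0.0681). Fos was not called when any of 5 single libraries was left out (adjusted p = 0.0523 to 0.213). Fos and Nr4a1 lost the call with the GC offset (log2 fold change 1.24 and 0.53, adjusted p = 0.0592 and 0.0642).

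Other members of the list act outside AP-1. Socs3, which blocks cytokine signalling through JAK kinases, had 17.8 and 15.5 CPM at 10 months, against 4.64, 6.38, 5.03 and 4.52 CPM at 3 months (log2 fold change 1.71 ± 0.22, adjusted p = 0.000192). Dusp1, a phosphatase of MAP kinases, had 93.1 and 87.2 CPM at 10 months, against 47.02, 47.2, 64.4 and 44.7 CPM at 3 months (0.83 ± 0.20, adjusted p = 0.00998). Zfp36, which destabilises mRNAs with AU-rich elements, had 54.5 and 59.1 CPM at 10 months, against 29.8, 34.8, 34.9 and 28.8 CPM at 3 months (0.83 ± 0.20, adjusted p = 0.00947). Gadd45g, a growth arrest gene, changed by 1.01 ± 0.20 (adjusted p = 0.00259), and Ier2, a nuclear regulator induced by growth factors, by 1.78 ± 0.26 (adjusted p = 0.000353). Ccn1, a secreted protein that binds integrins, had 74.1 and 78.1 CPM at 10 months, against 46.1, 49.8, 47.3 and 59.4 CPM at 3 months (0.58 ± 0.14, adjusted p = 0.00704). Dusp1 and Zfp36 were not called without 10 month replicate 1 (log2 fold change 0.78 and 0.89, adjusted p = 0.0851 and 0.054). Zfp36 and Ccn1 were not called without 10 month replicate 2 (log2 fold change 0.77 and 0.54, adjusted p = 0.0715 and 0.062). Dusp1 and Zfp36 lost the call with the GC offset (log2 fold change 0.64 and 0.67, adjusted p = 0.0646 and 0.0543). Dusp6, Sik1 and Zfp36l1, which also restrain signalling or mRNA levels, did not pass, with log2 fold changes of −0.14, −0.52 and 0.20 (adjusted p = 0.53, 0.275 and 0.322).

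Genes of ependymal cells and motile cilia were higher at 10 months. Ependymal cells line the ventricles and beat cilia that move cerebrospinal fluid, and they are made by the same progenitors as astrocytes. Of 26 tested genes, 12 rose and 0 fell, with a median log2 fold change of 0.57. The summed level was 3035 and 2282 CPM at 10 months, against 1318, 1805, 1791 and 1764 CPM at 3 months. The GC offset left the median at 0.57 and gave 13 genes higher. Between 6 and 3 months 11 of the 26 were already called higher, where 6.28% of all genes were. The median log2 fold change was 0.34 without 10 month replicate 1, which had the highest level, and 0.82 without replicate 2. Leaving out 3 month replicate 1, which had the lowest level, gave 12 genes higher and a median of 0.49.

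Foxj1, the transcription factor that switches on the motile cilium programme, had 325 and 257 CPM at 10 months, against 146, 181, 194 and 193 CPM at 3 months (log2 fold change 0.70 ± 0.15, adjusted p = 0.00328). Ccdc153, a cilium protein used to mark ependymal cells, had 239.7 and 188 CPM at 10 months, against 81.9, 114, 119 and 92.9 CPM at 3 months (1.07 ± 0.16, adjusted p = 0.00045). Its 11 libraries were ordered by age without overlap, and its call was kept under every alternative. Rsph1, of the radial spokes that time ciliary beating, had 155 and 112 CPM at 10 months, against 47.6, 72.5, 75.5 and 56.4 CPM at 3 months (1.09 ± 0.18, adjusted p = 0.000843). Cfap65, a protein of the axoneme, had 277 and 226 CPM at 10 months, against 73.7, 118, 71.3 and 118 CPM at 3 months (1.40 ± 0.22, adjusted p = 0.000993). Drc1, of the complex that links neighbouring microtubule doublets, had 93.4 and 59.9 CPM at 10 months, against 37.5, 41.8, 50.4 and 47.1 CPM at 3 months (0.79 ± 0.17, adjusted p = 0.00367). Outside the list, Iqcd, a further gene of that complex, had 42.5 and 34.2 CPM at 10 months, against 9.92, 15.9, 10.9 and 14.6 CPM at 3 months (1.57 ± 0.17, adjusted p = 5.57e-05). Foxj1 and Drc1 were not called without 10 month replicate 1 (log2 fold change 0.52 and 0.44, adjusted p = 0.0909 and 0.157). Foxj1 lost the call with the GC offset (log2 fold change 0.31, adjusted p = 0.212).

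RFX factors act with Foxj1 at cilium genes. A core of their motif, GTTGCC on either strand, lay in a promoter of 7 of 20 genes of the list (35%). Of single promoters of all genes, 4111 of 32851 held it (12.5%), so these shares are again in unlike units. It lay in a promoter of 5 of 9 members called higher. It is part of the longer X-box motif. The windows of Ccdc153 at chr9:44240427-44240726 and Drc1 at chr5:30281143-30281442, both on the plus strand of GRCm38.p6, show it in capitals.
Ccdc153 promoter: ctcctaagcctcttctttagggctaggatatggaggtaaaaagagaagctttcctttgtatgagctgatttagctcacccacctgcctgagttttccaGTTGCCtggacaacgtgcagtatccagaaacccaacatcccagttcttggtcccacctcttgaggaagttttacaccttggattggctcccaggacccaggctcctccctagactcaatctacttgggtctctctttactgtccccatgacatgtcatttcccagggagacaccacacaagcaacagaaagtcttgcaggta
Drc1 promoter: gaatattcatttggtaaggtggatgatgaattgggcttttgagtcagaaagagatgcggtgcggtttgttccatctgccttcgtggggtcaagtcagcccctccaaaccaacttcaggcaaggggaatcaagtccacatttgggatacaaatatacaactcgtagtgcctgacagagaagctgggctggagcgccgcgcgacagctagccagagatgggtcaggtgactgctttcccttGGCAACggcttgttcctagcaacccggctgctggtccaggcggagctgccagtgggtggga

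RNA-binding genes of ALS were higher at 10 months in several cases. Of 38 ALS genes tested, 9 rose and 3 fell, with a median log2 fold change of 0.11; with the GC offset 8 rose and 3 fell. For ALS genes 6 higher and 1 lower were called without 10 month replicate 1. Taf15 and Ewsr1, which encode RNA-binding proteins with a prion-like domain, both rose. Taf15 had 79.2 and 79.4 CPM at 10 months, against 50.9, 40.2, 46.5 and 50.97 CPM at 3 months (log2 fold change 0.75 ± 0.16, adjusted p = 0.00341). Ewsr1 had 263 and 259 CPM at 10 months, against 177, 174, 169.5 and 202 CPM at 3 months (0.53 ± 0.11, adjusted p = 0.00295). With the GC offset the log2 fold changes were 0.75 and 0.40 (adjusted p = 0.00562 and 0.0144), and no single library ended either call. Hnrnpa1 and Hnrnpa2b1, hnRNP proteins that shuttle between nucleus and cytoplasm, changed by 0.58 ± 0.13 and 0.51 ± 0.14 (adjusted p = 0.00413 and 0.0125). Hnrnpa1 and Hnrnpa2b1 were not called without 10 month replicate 1 (log2 fold change 0.56 and 0.48, adjusted p = 0.0534 and 0.11). Hnrnpa2b1 was not called without 10 month replicate 2 (log2 fold change 0.54, adjusted p = 0.0572).

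Tardbp itself had 118 and 109 CPM at 10 months, against 91.7, 87.3, 83.8 and 109.9 CPM at 3 months. The ranges overlapped and the gene was not called (log2 fold change 0.28 ± 0.13, adjusted p = 0.128), whereas with the GC offset it was (0.52, adjusted p = 0.00768). Reads from the transgene could count toward Tardbp where the sequences match, which the files do not separate. Anxa11, an annexin that tethers RNA granules to lysosomes, had 22.5 and 23.2 CPM at 10 months, against 10.03, 11.4, 12.8 and 12.4 CPM at 3 months (0.97 ± 0.16, adjusted p = 0.000742). Erbb4, a neuregulin receptor, and Atxn2, a regulator of translation, were among the ALS genes that fell. Erbb4 had 39.5 and 34.5 CPM at 10 months, against 71.2, 61.4, 64.9 and 78.7 CPM at 3 months (−0.91 ± 0.16, adjusted p = 0.0012). Atxn2 changed by −0.39 ± 0.11 (adjusted p = 0.0148). Atxn2 was not called without 10 month replicate 1 (log2 fold change −0.35, adjusted p = 0.15). Atxn2 was not called without 10 month replicate 2 (log2 fold change −0.42, adjusted p = 0.0702). Kif5a and Stmn2, which are also in the neuron list, were among the ALS genes that rose and are described with that list.

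Snrnp70, Leng8 and Neat1 are described for their abundance among the genes that rose. Snrnp70, the 70K protein of the U1 splicing particle, had 799.5 and 740.4 CPM at 10 months, against 356, 366, 221 and 342 CPM at 3 months (log2 fold change 1.26 ± 0.19, adjusted p = 0.000437). Leng8, an mRNA processing gene, had 1013 and 972 CPM at 10 months, against 429.7, 509.8, 249 and 451 CPM at 3 months (1.28 ± 0.19, adjusted p = 0.000525). Neat1, the non-coding RNA on which nuclear paraspeckles assemble, had 728 and 1049 CPM at 10 months, against 499, 359.8, 305 and 431 CPM at 3 months (1.16 ± 0.19, adjusted p = 0.00091). Malat1, another abundant nuclear RNA, went the other way, with 757 and 786 CPM at 10 months and 3165, 2912, 2045 and 3395 CPM at 3 months (−1.90 ± 0.29, adjusted p = 0.000668). All 4 kept their calls with the GC offset and without each single library. Malat1 belongs to an RNA composition list of 8 tested genes that were included as signs of library composition, of which 6 were lower, with a summed level of 5162 and 6438 CPM at 10 months, against 42325 to 74563 CPM at 3 months. At 6 months that level was 11675 CPM in replicate 3 and 31439 to 47944 CPM in the other libraries. For that list 1 higher and 7 lower were called with the GC offset, and 1 higher and 3 lower without 10 month replicate 1 or 2. The part of that shift in the results above was not tested beyond leaving 5 of those genes out of the fit, which gave 3671 calls. The genes left out included Malat1, Lars2 and the mitochondrial ribosomal RNAs mt-Rnr1 and mt-Rnr2.

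**Figure D4:**
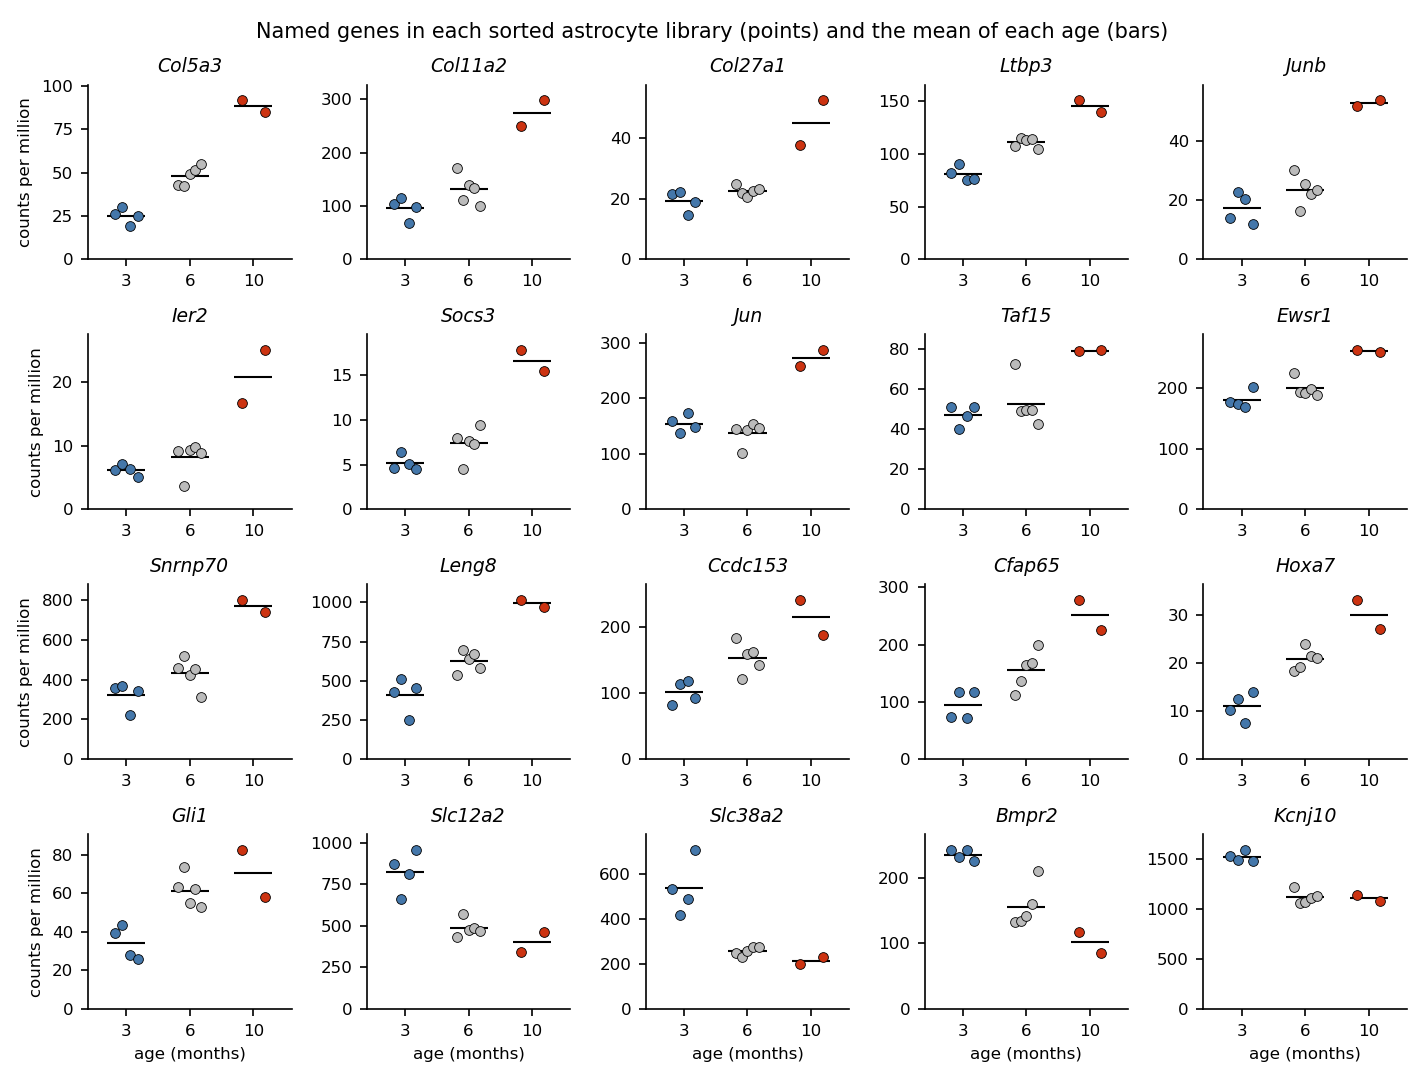
CPM of 20 named genes in every sorted astrocyte library at 3, 6 and 10 months, with points for libraries and bars for the mean of each age. Each axis starts at 0; for example Taf15 lies at 40.2 to 50.97 CPM at 3 months and at 79.2 and 79.4 CPM at 10 months.

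Lists of core astrocyte work had calls at shares on both sides of the 22.7% of all tested genes. Called were 23.5% of 17 genes for glutamate, GABA and glycine handling, 15% of 20 for potassium, water and pH handling, 23.5% of 17 for gap junctions and adhesion, 12.5% of 24 factors that act on synapses and 30.6% of 36 receptors. Of the 17 genes for glutamate, GABA and glycine handling 2 rose and 2 fell. For that list 0 higher and 0 lower were called with the GC offset or without 10 month replicate 1 or 2, 1 higher and 1 lower without 3 month replicate 1, and 0 higher and 1 lower without 3 month replicate 3 or 6 month replicate 3 or 4. Slc1a2, the main glutamate transporter of the forebrain, had 11734 and 10042 CPM at 10 months, against 17484, 18764, 19076 and 12095 CPM at 3 months (log2 fold change −0.63 ± 0.21, adjusted p = 0.0383). Without the fourth 3 month library, which stood apart, the value was larger (log2 fold change −0.76, adjusted p = 0.00395). Slc1a2 was not called when any of 7 single libraries was left out (adjusted p = 0.0558 to 0.242). Slc1a2 lost the call with the GC offset (log2 fold change −0.50, adjusted p = 0.0921). Slc1a3, Glul (glutamine synthetase), Gja1 (the main gap junction channel), Aqp4 (the water channel of astrocyte endfeet) and Atp1b2 did not pass, with log2 fold changes of −0.18 ± 0.18, −0.04 ± 0.18, −0.20 ± 0.18, −0.22 ± 0.16 and −0.09 ± 0.18 (adjusted p = 0.499, 0.901, 0.426, 0.339 and 0.747). Without the fourth 3 month library these were −0.30, −0.11, −0.33, −0.31 and −0.23, and were still not called.

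Of 20 genes for potassium, water and pH handling 0 rose and 3 fell. For that handling list 0 higher and 1 lower were called without 10 month replicate 1. Slc12a2, which carries sodium, potassium and chloride into cells, had 341 and 460.3 CPM at 10 months, against 872, 659, 814 and 955 CPM at 3 months (log2 fold change −1.04 ± 0.17, adjusted p = 0.000683). Kcnj10, the inward rectifier through which astrocytes buffer potassium, had 1142 and 1078 CPM at 10 months, against 1532, 1494, 1592 and 1483 CPM at 3 months (−0.46 ± 0.13, adjusted p = 0.0157). Car2, a carbonic anhydrase that oligodendrocytes also express, had 958 and 1163 CPM at 10 months, against 1612, 1229.7, 1504 and 1775 CPM at 3 months (−0.53 ± 0.15, adjusted p = 0.0196). All 3 were lower in both 10 month libraries than in any 3 month library, and their calls were kept with the GC offset. Kcnj10 and Car2 were not called without 10 month replicate 1 (log2 fold change −0.50 and −0.40, adjusted p = 0.0919 and 0.237). Kcnj10 was not called without 10 month replicate 2 (log2 fold change −0.42, adjusted p = 0.13). Myelinating oligodendrocyte markers fell in the same libraries, and their part in these 3 results was not tested.

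Amino acid transporters were called on both sides. Slc38a2, a glutamine carrier induced by amino acid shortage, had 199.9 and 231 CPM at 10 months, against 531, 416, 490.2 and 706 CPM at 3 months (log2 fold change −1.31 ± 0.17, adjusted p = 0.000203). Its 11 libraries were ordered by age, and its call was kept in every alternative fit. Slc7a11, which exports glutamate in exchange for cystine, was also lower, with 281 and 296 CPM at 10 months, against 461, 463, 405 and 360.3 CPM at 3 months (−0.55 ± 0.15, adjusted p = 0.0145). Slc7a10, which carries D-serine and glycine, was higher, with 409.5 and 373 CPM at 10 months, against 328, 336, 259.8 and 235 CPM at 3 months (0.43 ± 0.14, adjusted p = 0.0354). Slc7a11 was not called without 10 month replicate 1 (log2 fold change −0.51, adjusted p = 0.13). Slc7a11 was not called without 10 month replicate 2 (log2 fold change −0.59, adjusted p = 0.0693). Slc7a10 was not called when any of 6 single libraries was left out (adjusted p = 0.0507 to 0.238). Slc7a11 and Slc7a10 lost the call with the GC offset (log2 fold change −0.28 and 0.17, adjusted p = 0.131 and 0.385).

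Of 36 neurotransmitter and growth factor receptors tested, 3 rose and 8 fell, and with the GC offset 1 rose and 6 fell. For receptors 1 higher and 3 lower were called without 10 month replicate 1, 2 higher and 2 lower without 10 month replicate 2, and 2 higher and 5 lower without 3 month replicate 3. Cnr1, the main cannabinoid receptor of the brain, had 14.7 and 13.8 CPM at 10 months, against 30.2, 30.1, 26.4 and 21.2 CPM at 3 months (log2 fold change −0.91 ± 0.16, adjusted p = 0.00132). Grin2c, an NMDA receptor subunit enriched in astrocytes, had 603 and 639.6 CPM at 10 months, against 407, 447, 310.4 and 331.1 CPM at 3 months (0.73 ± 0.15, adjusted p = 0.00264). Grin2c lost the call with the GC offset (log2 fold change 0.33, adjusted p = 0.0958). Of 46 potassium channel genes, 4 rose and 5 fell. For potassium channels 3 higher and 6 lower were called with the GC offset, and 2 higher and 2 lower without 10 month replicate 1. Kcnq3, of the channels that carry the M current, had 63.97 and 68.8 CPM at 10 months, against 125, 111, 120.4 and 136 CPM at 3 months (−0.89 ± 0.12, adjusted p = 0.000228). Kcna1, a voltage-gated channel of axons and glia, had 65.4 and 76.9 CPM at 10 months, against 156, 115, 146 and 154 CPM at 3 months (−1.005 ± 0.16, adjusted p = 0.000644). Both calls were kept under every alternative tried.

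Cell contact genes fell where they were called. Of 17 gap junction and adhesion genes 0 rose and 4 fell. For adhesion genes 0 higher and 2 lower were called without 10 month replicate 1. Ncam2, a neural adhesion molecule, had 63.1 and 68.3 CPM at 10 months, against 132, 117, 134 and 142 CPM at 3 months (log2 fold change −0.997 ± 0.12, adjusted p = 0.000124). Tjp1, the scaffold ZO-1 of tight and gap junctions, had 309 and 294 CPM at 10 months, against 474, 456, 479.6 and 487 CPM at 3 months (−0.65 ± 0.12, adjusted p = 0.00112). Gjc3, a connexin of oligodendrocytes, had 204 and 281 CPM at 10 months, against 499, 354, 456 and 468 CPM at 3 months (−0.87 ± 0.18, adjusted p = 0.00256). Gjc3 was not called without 10 month replicate 1 (log2 fold change −0.66, adjusted p = 0.0719). Megf10, a phagocytic receptor with which astrocytes remove synapses, had 272 and 291 CPM at 10 months, against 411, 362, 417 and 385 CPM at 3 months (−0.48 ± 0.12, adjusted p = 0.00862). Megf10 was not called without 10 month replicate 1 (log2 fold change −0.43, adjusted p = 0.113).

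Among signalling pathways, hedgehog genes included members on both sides. Of 14 tested, 3 rose and 2 fell. For hedgehog genes 1 higher and 2 lower were called with the GC offset or without 10 month replicate 1, 2 higher and 1 lower without 10 month replicate 2 or 3 month replicate 3 or 6 month replicate 3 or 4, and 1 higher and 1 lower without 3 month replicate 1. Gli1, both an effector and a target of the pathway, had 82.3 and 58.3 CPM at 10 months, against 39.5, 43.3, 27.99 and 26.1 CPM at 3 months (log2 fold change 1.05 ± 0.19, adjusted p = 0.00165). Hhip, an inhibitor that binds hedgehog ligands and is itself a target, had 69.4 and 57.04 CPM at 10 months, against 129, 106, 138 and 156 CPM at 3 months (−1.07 ± 0.15, adjusted p = 0.000318). The receptor Ptch1 had 314 and 244 CPM at 10 months, against 395, 375, 382 and 315 CPM at 3 months (−0.39 ± 0.13, adjusted p = 0.0394). Ptch1 was not called when any of 6 single libraries was left out (adjusted p = 0.0529 to 0.405).

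Of 34 BMP and TGF-beta genes 2 rose and 6 fell, with receptors among those that fell. For BMP and TGF-beta genes 2 higher and 5 lower were called with the GC offset, and 1 higher and 2 lower without 10 month replicate 1. Bmpr2, the type II receptor for BMPs, had 118 and 85.98 CPM at 10 months, against 242, 231, 242 and 225 CPM at 3 months (log2 fold change −1.21 ± 0.18, adjusted p = 0.000373). Tgfbr1, the type I receptor for TGF-beta, had 23.7 and 19.3 CPM at 10 months, against 37.3, 36.4, 39.7 and 36.2 CPM at 3 months (−0.80 ± 0.14, adjusted p = 0.000904). Smad7, an intracellular inhibitor that the pathway induces, had 47.1 and 54.6 CPM at 10 months, against 96.9, 68.7, 85.2 and 92.5 CPM at 3 months (−0.76 ± 0.16, adjusted p = 0.00287). In both receptor genes the 11 libraries were ordered by age without overlap. Smad7 was not called without 10 month replicate 1 (log2 fold change −0.65, adjusted p = 0.0619).

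Of 26 Notch genes 4 rose and 0 fell, and with the GC offset 2 rose and 1 fell. For Notch genes 1 higher and 0 lower were called without 10 month replicate 1. Dtx3, of the Deltex family of Notch regulators, had 239 and 219 CPM at 10 months, against 143, 155, 119.96 and 126 CPM at 3 months (log2 fold change 0.75 ± 0.12, adjusted p = 0.000559). Of 38 Wnt genes 1 rose and 5 fell. For Wnt genes 1 higher and 7 lower were called with the GC offset. The receptors Fzd4 and Lrp6 had 36.3 and 29.1 CPM and 78.97 and 80.6 CPM at 10 months, against 57.3, 56.5, 66.3 and 48.1 CPM and 110.3, 113, 124 and 157 CPM at 3 months. Their log2 fold changes were −0.80 ± 0.15 and −0.66 ± 0.14 (adjusted p = 0.00156 and 0.00315), and both ages were separate in each. Wnt11, a ligand, was the gene that rose, with 5.89 and 4.64 CPM at 10 months, against 1.62, 2.31, 1.22 and 1.92 CPM at 3 months (1.55 ± 0.31, adjusted p = 0.00229). Lifr, a receptor subunit for cytokines that drive astrocyte differentiation, had 79.7 and 86.1 CPM at 10 months, against 134, 123, 138 and 147 CPM at 3 months (−0.71 ± 0.11, adjusted p = 0.000508). Traf1, an NF-kB target that binds TNF receptors, had 52.1 and 70.5 CPM at 10 months, against 27.4, 29.1, 23.4 and 32.4 CPM at 3 months (1.12 ± 0.18, adjusted p = 0.000666).

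Clock genes moved in opposite directions. Of 24 tested, 7 rose and 4 fell, and with the GC offset 5 rose and 1 fell. For clock genes 3 higher and 2 lower were called without 10 month replicate 1, 4 higher and 1 lower without 10 month replicate 2, and 5 higher and 2 lower without 3 month replicate 1 or 3. The clock output gene Dbp had 99.5 and 111 CPM at 10 months, against 53.4, 65.7, 53.4 and 37.2 CPM at 3 months (log2 fold change 1.02 ± 0.18, adjusted p = 0.00142), and averaged 161 CPM at 6 months. Per3, a repressor of the loop, had 142 and 131 CPM at 10 months, against 76.4, 86.3, 56.1 and 84.97 CPM at 3 months (0.84 ± 0.16, adjusted p = 0.00223). Clock, an activator of the loop, had 75.97 and 76.9 CPM at 10 months, against 119, 115, 133 and 155 CPM at 3 months (−0.77 ± 0.16, adjusted p = 0.00288). The hour at which tissue was taken is not given in the labels, and these transcripts vary over the day, so age and hour cannot be told apart. Nr3c1, the glucocorticoid receptor, had 192 and 182 CPM at 10 months, against 317, 264, 294 and 273 CPM at 3 months (−0.62 ± 0.13, adjusted p = 0.00288).

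Lipid genes were called on both sides. Of 27 cholesterol synthesis genes 3 rose and 7 fell, with a median log2 fold change of −0.23, and with the GC offset 1 rose and 5 fell. For cholesterol synthesis 0 higher and 1 lower were called without 10 month replicate 1. Hmgcs1, an early enzyme of the pathway, had 263 and 285 CPM at 10 months, against 449, 398, 486 and 459.9 CPM at 3 months (−0.71 ± 0.14, adjusted p = 0.00224). Vldlr, a receptor for apolipoprotein E and reelin, had 74.04 and 87.9 CPM at 10 months, against 148, 132, 152 and 181 CPM at 3 months (−0.92 ± 0.15, adjusted p = 0.000632). Cyp46a1, which hydroxylates cholesterol so that it can leave the brain, was higher, with 91.6 and 87.5 CPM at 10 months, against 56.5, 59.1, 48.2 and 45.4 CPM at 3 months (0.78 ± 0.12, adjusted p = 0.000409). The calls of these 3 genes were kept without each single library and with the GC offset. Of 20 genes of cholesterol export and lipoproteins 3 rose and 2 fell. For export and lipoproteins 1 higher and 3 lower were called with the GC offset, 1 higher and 1 lower without 10 month replicate 1, 2 higher and 1 lower without 10 month replicate 2 or 3 month replicate 3, and 1 higher and 2 lower without 3 month replicate 4. Of 44 genes of fatty acid synthesis and oxidation 4 rose and 9 fell. For fatty acid genes 3 higher and 7 lower were called with the GC offset, 2 higher and 2 lower without 10 month replicate 1, and 2 higher and 6 lower without 10 month replicate 2. Elovl6, which lengthens saturated fatty acids, had 86.5 and 105 CPM at 10 months, against 169.7, 145, 179 and 174 CPM at 3 months (−0.80 ± 0.12, adjusted p = 0.000441). Plin5, which links lipid droplets to mitochondria, had 11.3 and 11.6 CPM at 10 months, against 4.31, 5.43, 5.84 and 5.45 CPM at 3 months (1.12 ± 0.19, adjusted p = 0.000947). Apoe, the main lipoprotein of astrocytes, had 8338 and 7253 CPM at 10 months, against 5622, 5894, 6073 and 3925 CPM at 3 months, without overlap but not called (0.54 ± 0.25, adjusted p = 0.133).

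Of 39 genes for glycolysis, glycogen and lactate 6 rose and 4 fell, and with the GC offset 2 rose and 2 fell. For glycolysis, glycogen and lactate 1 higher and 2 lower were called without 10 month replicate 1 or 2. Slc2a4, the insulin-regulated glucose transporter, had 12.001 and 10.9 CPM at 10 months, against 3.77, 4.48, 6.11 and 3.32 CPM at 3 months (log2 fold change 1.42 ± 0.22, adjusted p = 0.000573). Its 6 month mean of 11.01 CPM was already at the later level. Slc16a7, a monocarboxylate transporter that takes up lactate with high affinity, had 12.97 and 11.04 CPM at 10 months, against 24.2, 18.9, 24.5 and 29.7 CPM at 3 months (−1.03 ± 0.19, adjusted p = 0.00169). Slc27a1, a fatty acid transporter of the cell surface, had 875 and 907 CPM at 10 months, against 639.9, 645, 496 and 452 CPM at 3 months (0.68 ± 0.15, adjusted p = 0.00405). Slc27a1 lost the call with the GC offset (log2 fold change 0.35, adjusted p = 0.0795).

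Markers of reactivity were mostly not called. Of 10 pan-reactive genes 2 rose and 0 fell, of 11 genes of the neurotoxic A1 list 1 rose, and of 8 genes of the A2 list 1 rose. For the pan-reactive list 1 higher and 0 lower were called with the GC offset or without 10 month replicate 1. For the A1 list 0 higher and 0 lower were called without 10 month replicate 1 or 2 or 3 month replicate 1 or 4. For the A2 list 2 higher and 0 lower were called with the GC offset, and 0 higher and 0 lower without 10 month replicate 1 or 2 or 3 month replicate 1 or 4. Gfap, the intermediate filament by which reactivity is usually judged, had 243 and 152 CPM at 10 months, against 118, 173, 137 and 185 CPM at 3 months. The ages overlapped and it was not called (log2 fold change 0.37 ± 0.22, adjusted p = 0.24). Vim, the filament protein vimentin, had 454 and 349 CPM at 10 months, against 199.6, 267, 281 and 246 CPM at 3 months (0.69 ± 0.17, adjusted p = 0.00785). Aspg, an asparaginase of the pan-reactive list, had 10.5 and 8.997 CPM at 10 months, against 2.59, 3.94, 1.63 and 3.48 CPM at 3 months (1.71 ± 0.36, adjusted p = 0.00366). Serpina3n, a protease inhibitor strongly induced in reactive astrocytes, had 23.6 and 15.1 CPM at 10 months, against 22.4, 16.3, 20.1 and 24.7 CPM at 3 months (−0.13 ± 0.19, adjusted p = 0.658). Vim was not called without 10 month replicate 1 (log2 fold change 0.49, adjusted p = 0.155). Vim lost the call with the GC offset (log2 fold change 0.54, adjusted p = 0.0505).

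Complement genes were mostly higher where called, with 4 of 16 higher and 1 lower. For complement 3 higher and 0 lower were called without 10 month replicate 2. C4b, of the classical pathway, had 218 and 135 CPM at 10 months, against 80.4, 71.6, 76.9 and 109 CPM at 3 months (log2 fold change 1.06 ± 0.18, adjusted p = 0.00102). C3, the central component, had 38.3 and 19.4 CPM at 10 months, against 4.53, 10.9, 10.9 and 9.24 CPM at 3 months (1.70 ± 0.30, adjusted p = 0.00163). The other genes that rose, C1qa and C1qc, are microglial. C1qa had 3.86 and 4.55 CPM at 10 months, against 1.19, 1.63, 1.36 and 1.25 CPM at 3 months (1.65 ± 0.33, adjusted p = 0.00259).

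Of 34 interferon response genes 4 rose and 0 fell, near the share over all genes, with a median log2 fold change of 0.24. For interferon genes 3 higher and 0 lower were called with the GC offset, 1 higher and 0 lower without 10 month replicate 1 or 2, and 2 higher and 0 lower without 3 month replicate 1. Of 19 antigen presentation genes 3 rose and 2 fell. For antigen presentation 2 higher and 0 lower were called with the GC offset or without 10 month replicate 2 or 3 month replicate 3, 1 higher and 1 lower without 10 month replicate 1, and 2 higher and 1 lower without 3 month replicate 2. Tap2, of the transporter that loads peptides onto MHC class I, had 24.97 and 26.2 CPM at 10 months, against 15.5, 16.2, 12.2 and 9.76 CPM at 3 months (0.95 ± 0.21, adjusted p = 0.00408). Its partner Tap1 had 12.2 and 7.33 CPM at 10 months, against 4.64, 6.38, 3.4 and 3.997 CPM at 3 months (1.096 ± 0.26, adjusted p = 0.00717). Tap1 was not called without 10 month replicate 1 (log2 fold change 0.69, adjusted p = 0.195). Of 28 heat shock chaperones 0 rose and 2 fell. For chaperones 0 higher and 1 lower were called with the GC offset, and 0 higher and 0 lower without 10 month replicate 1. Cryab, a small heat shock protein, had 442 and 599 CPM at 10 months, against 804, 625, 857 and 1173 CPM at 3 months (−0.73 ± 0.21, adjusted p = 0.0171). Cryab was not called without 10 month replicate 1 (log2 fold change −0.53, adjusted p = 0.214). Bbc3, which encodes the pro-apoptotic protein PUMA, had 10.5 and 12.4 CPM at 10 months, against 3.24, 4.07, 2.85 and 3.27 CPM at 3 months (1.78 ± 0.26, adjusted p = 0.000344), whereas Cdkn1a, the cell cycle inhibitor p21, had 12.6 and 14.1 CPM at 10 months, against 11.2, 11.5, 14.9 and 21.1 CPM at 3 months (adjusted p = 0.631).

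The title of the series names MYC, a transcription factor of growth that binds DNA with its partner MAX. Myc had 7.5 and 9.65 CPM at 10 months, against 8.09, 5.16, 7.74 and 4.52 CPM at 3 months, and was not called (log2 fold change 0.46 ± 0.26, adjusted p = 0.212). Mycn had 4.07 and 3.62 CPM at 10 months, against 3.34, 2.99, 4.89 and 4.93 CPM at 3 months (−0.09 ± 0.30, adjusted p = 0.849). Max had 62.5 and 58.4 CPM at 10 months, against 60.4, 61.2, 59.2 and 62.2 CPM at 3 months (−0.01 ± 0.10, adjusted p = 0.961). The ages overlapped in all 3 genes. Of 73 MYC targets of ribosome biogenesis 8 rose and 4 fell, a median log2 fold change of 0.05, and with the GC offset 4 rose and 1 fell. For MYC targets 1 higher and 0 lower were called without 10 month replicate 1, 2 higher and 1 lower without 10 month replicate 2, and 5 higher and 2 lower without 3 month replicate 3. Las1l, needed for processing of ribosomal RNA, had 69.004 and 60.1 CPM at 10 months, against 36.1, 45.1, 35.9 and 45.3 CPM at 3 months (0.66 ± 0.12, adjusted p = 0.00147). Odc1, the first enzyme of polyamine synthesis and a classical MYC target, had 84.2 and 72.8 CPM at 10 months, against 44.9, 59.1, 63.4 and 54.03 CPM at 3 months (0.51 ± 0.13, adjusted p = 0.0105). Of 77 cytosolic ribosomal protein genes 5 rose and 2 fell. For ribosomal proteins 3 higher and 3 lower were called with the GC offset, 0 higher and 0 lower without 10 month replicate 1 or 2, 1 higher and 2 lower without 3 month replicate 1, and 9 higher and 3 lower without 6 month replicate 5. Odc1 was not called without 10 month replicate 1 (log2 fold change 0.40, adjusted p = 0.153).

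Markers of other cell types also shifted with age, and their part in the results above was not tested. Of 22 choroid plexus genes 0 rose and 12 fell, with a summed level of 138 and 60.1 CPM at 10 months, against 277, 1041, 1696 and 629 CPM at 3 months. Leaving out single 10 month libraries left 11 and 6 of them called lower. Cldn2, a tight junction protein of that epithelium, had 0.857 and 0.649 CPM at 10 months, against 2.7, 4.48, 10.2 and 3.27 CPM at 3 months (log2 fold change −2.72 ± 0.56, adjusted p = 0.00312). Leaving the whole list out of the fit gave 3671 calls.

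Of 30 markers of myelinating oligodendrocytes 0 rose and 15 fell, with a summed level of 22664 and 34299 CPM at 10 months, against 44034, 33071, 44064 and 52623 CPM at 3 months. The sums overlapped, and without 10 month replicate 1 only 2 markers were called lower, against 18 without replicate 2. Tspan2, a tetraspanin of myelin, had 377 and 429 CPM at 10 months, against 1114, 772, 949.9 and 1079.6 CPM at 3 months (−1.28 ± 0.19, adjusted p = 0.000353). Enpp2, which makes lysophosphatidic acid, had 889 and 1132 CPM at 10 months, against 1965, 1762, 2379 and 2541 CPM at 3 months (−1.097 ± 0.19, adjusted p = 0.000886). Of 17 markers of newly formed oligodendrocytes 3 rose and 6 fell. For newly formed oligodendrocytes 2 higher and 6 lower were called with the GC offset, and 2 higher and 3 lower without 10 month replicate 1. Bcas1, of the 3 that rose, was higher, with 192 and 365 CPM at 10 months, against 132, 168, 143 and 163 CPM at 3 months (0.88 ± 0.22, adjusted p = 0.0119). Bcas1 was not called without 10 month replicate 2 (log2 fold change 0.34, adjusted p = 0.328).

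Of 25 endothelial markers 0 rose and 6 fell, with a summed level of 410 and 304 CPM at 10 months, against 421, 656, 686 and 654 CPM at 3 months. For endothelial markers 0 higher and 3 lower were called without 10 month replicate 1, 0 higher and 2 lower without 10 month replicate 2, 0 higher and 11 lower without 3 month replicate 1, and 0 higher and 10 lower without 6 month replicate 1. Abcc9, a potassium channel subunit of pericytes, had 6.64 and 6.31 CPM at 10 months, against 18.3, 20.4, 14.7 and 18.997 CPM at 3 months (−1.49 ± 0.24, adjusted p = 0.000623). Of 17 microglial markers 5 rose and 0 fell, but their summed level overlapped, at 239 and 284 CPM at 10 months, against 229 to 299 CPM at 3 months. For microglia 3 higher and 0 lower were called without 10 month replicate 1, and 2 higher and 0 lower without 10 month replicate 2. Cx3cr1, the fractalkine receptor of microglia, had 4.18 and 5.84 CPM at 10 months, against 2.59, 1.77, 2.04 and 2.02 CPM at 3 months (1.25 ± 0.28, adjusted p = 0.00438). Of the blood and border list, Hba-a1, a haemoglobin gene, had 6.11 and 14.2 CPM at 10 months, against 2.7, 2.17, 4.48 and 4.05 CPM at 3 months (1.58 ± 0.34, adjusted p = 0.00401). The 17 listed genes, of which 9 were tested, summed to 29.9 and 61.96 CPM at 10 months, against 15.1 to 22.6 CPM at 3 months. For that blood list 0 higher and 0 lower were called without 10 month replicate 2. Cx3cr1 and Hba-a1 were not called without 10 month replicate 2 (log2 fold change 0.98 and 0.84, adjusted p = 0.0913 and 0.18).

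Of 27 neuronal markers 5 rose and 0 fell, with a summed level of 535 and 567 CPM at 10 months, against 394 to 491 CPM at 3 months. For neuronal markers 4 higher and 1 lower were called with the GC offset, 3 higher and 0 lower without 10 month replicate 1 or 3 month replicate 1 or 4, and 2 higher and 0 lower without 10 month replicate 2. Meg3, a non-coding RNA of neurons, had 37.5 and 30.1 CPM at 10 months, against 9.71, 11.3, 4.21 and 15.6 CPM at 3 months (1.67 ± 0.28, adjusted p = 0.0013). Stmn2, whose splicing TDP-43 controls in human neurons, had 8.79 and 12.5 CPM at 10 months, against 3.88, 6.11, 7.34 and 6.02 CPM at 3 months (0.88 ± 0.26, adjusted p = 0.0219). Kif5a, a kinesin of axons, had 87.3 and 168 CPM at 10 months, against 56.8, 102, 83.01 and 70.2 CPM at 3 months (0.72 ± 0.23, adjusted p = 0.0336). Stmn2 was not called without 10 month replicate 2 (log2 fold change 0.60, adjusted p = 0.27). Stmn2 was not called without 3 month replicate 1 (log2 fold change 0.73, adjusted p = 0.0589). Kif5a was not called when any of 5 single libraries was left out (adjusted p = 0.0566 to 0.663). Kif5a lost the call with the GC offset (log2 fold change 0.57, adjusted p = 0.102).

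**Figure D5:**
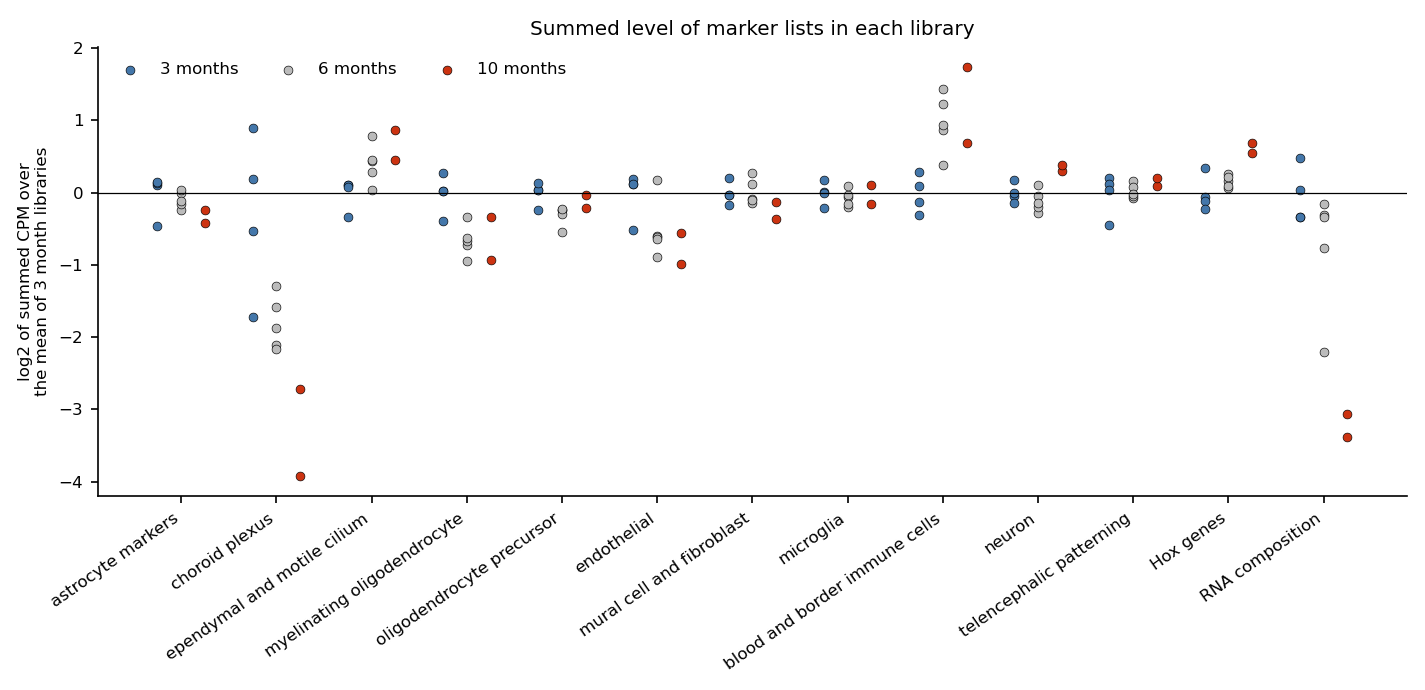
Summed level of cell type and region marker lists in each library, as log2 of summed CPM over the mean of the 3 month libraries, for 3, 6 and 10 months. Choroid plexus markers are lowest at 10 months, where they sum to 138 and 60.1 CPM, and Hox markers are highest there, at 154 and 171 CPM.

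Genes that mark the position of cells along the body axis differed with age. Hox genes are expressed in spinal cord and hindbrain and not in cortex. Of 27 tested genes of the Hox, hindbrain and spinal cord list 12 rose and 0 fell, with a median log2 fold change of 0.62 and a summed level of 154 and 171 CPM at 10 months, against 101, 97.9, 89.9 and 133 CPM at 3 months. With the GC offset 7 rose, and 4 were called higher without 10 month replicate 1 and 4 without replicate 2. Hoxa7 had 33.002 and 26.99 CPM at 10 months, against 10.2, 12.5, 7.61 and 14.01 CPM at 3 months (1.41 ± 0.18, adjusted p = 0.000192). Hoxb3 had 2.79 and 4.64 CPM at 10 months, against 0.324, 1.09, 0.136 and 0.571 CPM at 3 months (2.79 ± 0.42, adjusted p = 0.000453). Both were ordered by age over all 11 libraries and kept their calls in every alternative fit. Of 7 telencephalic genes, which mark cortex, edgeR called 0, with 3 at an unadjusted p under 0.05, while DESeq2 called 0 and limma-voom called 1. All 7 had a positive log2 fold change, with a median of 0.35, or 0.03 with the GC offset. The tissue label names cortices and spinal cords together, so a change in the mix of regions and a change within a region cannot be told apart.

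The 6 month libraries place some of the changes in time. Between 10 and 6 months 147 genes (0.908%) were called, 93 higher (0.574%) and 54 lower (0.334%), whereas between 6 and 3 months 2359 genes (14.6%) were called, 1017 higher (6.28%) and 1342 lower (8.29%). The 10 over 3 and 6 over 3 months comparisons share the 3 month libraries, and the later step rests on 2 libraries, so these counts are not measures of pace. The 11 libraries were ordered by age without overlap for 162 genes that increased (1%) and 205 that decreased (1.27%). Of the genes that increased, Plppr3, a membrane protein related to lipid phosphatases, had a log2 fold change of 0.94 at 6 over 3 months (adjusted p = 0.000301) and 0.61 at 10 over 6 months (adjusted p = 0.0305). Col5a3 changed by 0.94 and then 0.87 (adjusted p = 0.000505 and 0.00998). Adam11 changed by 0.80 and then 0.86 (adjusted p = 0.00127 and 0.0121). Pgap1, an enzyme that remodels GPI anchors, changed by −0.70 and then −0.55 (adjusted p = 0.000545 and 0.0417).

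Most genes named next were called at one step and not at the other, and the difference between the steps was not tested. Immediate early genes had calls at both steps. Between 10 and 6 months 6 of 36 were higher, where 0.574% of all genes were. Between 6 and 3 months 3 were higher and 1 lower, where 6.28% of all genes were higher and 8.29% lower. Jun changed by −0.16 at 6 over 3 months (adjusted p = 0.364) and by 0.98 at 10 over 6 months (adjusted p = 0.00754). Col27a1 changed by 0.23 (adjusted p = 0.25) and then 0.998 (adjusted p = 0.00998). The collagen list had calls at both steps, with 6 higher and 3 lower at the first and 4 higher and 0 lower at the second. Slc2a4, Hhip and Slc12a2 had changes of 1.35, −0.78 and −0.76 at 6 over 3 months (adjusted p = 0.000683, 0.000777 and 0.00149) and of 0.07, −0.29 and −0.28 at 10 over 6 months (adjusted p = 0.902, 0.328 and 0.38). Kif5a was called at both steps, lower at the first and higher at the second, with log2 fold changes of −0.78 and 1.498 (adjusted p = 0.0124 and 0.0108). Dbp rose by 1.63 at the first step (adjusted p = 8.82e-05) and had −0.62 at the second (adjusted p = 0.104).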

How the data were processed

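Poly(A) RNA of astrocytes sorted from TDP-43_Q331K mice was sequenced at 3, 6 and 10 months (4, 5 and 2 libraries), and groups and replicate numbers were taken from the sample titles. The authors deposited raw counts per gene and length-scaled TPM. Per the submitters' processing notes, featureCounts 2.0.1 and STAR 2.7.7a were among the tools, as were fastp, DESeq2 and UMI-tools 1.0.1, with the builds GRCm39, GRCm38.p6 and mm10 listed without saying which was used for which samples. No source used here says whether counting used strand, so reads of overlapping antisense genes cannot be told apart. The deposited counts were used for every test, and the deposited TPM only to compare levels between genes.

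Genes passing filterByExpr (minimum count 10) were fitted with one mean per age by the robust quasi-likelihood method of edgeR 4.0.16 in R 4.3.3, after scaling by the trimmed mean of M-values. Calls had an adjusted p (Benjamini-Hochberg over all genes tested) under 0.05. The contrast was 10 over 3 months, with 10 over 6 and 6 over 3 months beside it. Lists of genes were described by counts and medians, with no test of the list. The members and lists were chosen with earlier results of these data known. Alternatives were another scaling, other filters, the 2 ages alone, a replicate block, age as a number, DESeq2 1.42.0, limma-voom (limma 3.58.1), leaving out the RNA composition or choroid plexus genes, and leaving out each library. The GC offset (lowess with a span of 0.3 on transcript GC percent per library), its extension to transcript length and its repeats without each 10 month library were added after seeing the data. GC content, lengths and gene positions came from GENCODE M21 (GRCm38), matched by symbol for 98.2% to 99.0% of genes called or not called, and promoters from RefSeq on GRCm38.p6. The fit was also tested on simulated data.

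Genes named were up to 15 each way by size of change among called genes of at least 5 CPM in the higher group whose ages did not overlap and whose calls held without each 10 month library, up to 10 each way by abundance and by ordering over the 3 ages, up to 6 called members of each list by smallest p, and a fixed set of astrocyte, MYC and TDP-43 genes. Named after their values were seen, outside that rule, were Col6a4, Col5a1, Col16a1, Col9a3, Col3a1, Col14a1, Fos, Zfp36, Npas4, Nr4a1, Ccn1, Hnrnpa1, Hnrnpa2b1, Atxn2, Col4a3, Col6a2, Col15a1, Dusp6, Sik1 and Zfp36l1. Some results are not reported here, though the counts of lists cover every tested member. CPM values carry counting error that is largest for genes of a few CPM, such as Hoxb3 and Wnt11, at these depths.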

Additional observations from a re-analysis of the deposited data

Results flagged for a closer look

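In each group of 4 libraries at 3 months the highest or lowest value was set against the rest, by Dixon's ratio of its gap to the whole range at the 95% level. Of 265 values tried, 16 passed, and chance alone passes about 1 in 20 groups. The 16 are thus near the number that chance alone would pass. Single genes and summed levels can share members, so the values are not independent. The values below describe single libraries and are not shown to exceed chance. Groups of 2 libraries cannot be tested in this way, so no 10 month value was.

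The fourth 3 month library was low for astrocyte genes. Slc1a3 was at 3010 CPM there and at 4473 to 4647 CPM in the other 3, Atp1b2 at 2726 CPM against 4229 to 4308 CPM, and Aqp4 at 826 CPM against 1057 to 1095 CPM. The summed levels of astrocyte markers (23638 CPM), glutamate, GABA and glycine handling (25587 CPM), potassium, water and pH handling (17281 CPM), glycolysis, glycogen and lactate (7063 CPM) and the Wnt pathway (1998 CPM) were also lowest in that library. Slc1a2 was called lower at 10 months with that library and without it. As given above, that call was lost with the GC offset and when several other single libraries were left out.

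The first 3 month library was low for vessel and cilium genes. Cdh5, a cadherin of endothelial cells, was at 12.2 CPM there and at 26.7 to 28.5 CPM in the others. The summed levels of endothelial markers (421 CPM), ependymal and motile cilium genes (1318 CPM), the A1 list (67.0 CPM) and the pan-reactive list (417 CPM) were lowest there too. Pcdhb11, a clustered protocadherin, was at 3.34 CPM in that library and at 2.85 CPM in each of the others. In the third 3 month library Dusp1 was at 64.4 CPM, against 44.7 to 47.2 CPM in the others, and Snrnp70 at 221 CPM, against 342 to 366 CPM.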

How the results depend on the processing

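The number of genes called between 10 and 3 months stayed within 1.5 times of 3674 under another scaling (3683), no filter (3504), a filter at 1 CPM (3678), the 2 ages alone (3757), age as a number (3418), DESeq2 (3918), limma-voom (3718), removal of the RNA composition genes or the choroid plexus list (3671 each) and the GC offset (2690), and fell to 2407 with the GC and length offset. Calls higher fell to 1236 with the GC offset and to 1200 with GC and length, and calls lower to 1207 with GC and length, against 1454 with GC alone. Leaving out single libraries gave 1052 to 4340 calls (561 to 2234 higher, 491 to 2106 lower), the fewest without 10 month replicate 1. With the GC offset and without 10 month replicate 1 or 2, 346 and 1482 genes were called (190 and 684 higher, 156 and 798 lower). Between 10 and 6 months the 147 calls became 578 with no filter, 609 with DESeq2, 53 with the GC offset and 58 with GC and length, and 11 to 320 when single libraries were left out. Between 6 and 3 months, leaving out single libraries gave 1161 to 2637. The replicate block gave 2919 calls between 10 and 3 months and 56 between 10 and 6 months, but deviations of 10 and 3 month libraries sharing a number correlated at −0.11 and −0.17, so the numbers do not pair the samples. Of 212 genes considered for the text 195 were called, 0 of them changed direction in 25 alternatives, 153 kept the call with the GC offset, 98 without each single library and 36 under all. Kept under all alternatives were 114 higher and 84 lower genes of all those tested. An alternative in which a gene was filtered out or had no adjusted p did not count as a loss. Some genes kept, such as Shfl, had no GC value and so no GC offset of their own. Among genes that were not called, 8 changed sign. Leaving out single libraries gave log2 fold changes of −0.0080 to 0.67 for Gfap, −0.24 to 0.041 for Atp1b2, −0.11 to 0.037 for Glul, −0.48 to 0.16 for Serpina3n, −0.28 to 0.097 for Cdkn1a, −0.19 to 0.045 for Mycn and −0.057 to 0.039 for Max. Aqp4 was at 0.022 with the GC offset, 0.098 with GC and length and 0.14 with the offset and without 10 month replicate 2, in which fit Serpina3n was at 0.073 and Max at 0.025. With the offset and without 10 month replicate 1, Gfap was at −0.22 and Glul at 0.046. With the replicate block, Cdkn1a was at 0.011 and Mycn at 0.26. The cause of these shifts was not tested. With 2 libraries at 10 months, genes of few counts and small changes are hard to call, so an uncalled gene is not shown to be unchanged.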
